A study of Mus musculus with 6 samples.

Results

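The genes described here are 36 transcription factors that mark regions of the hypothalamus, taken by name from the 50559 genes of a table of RNA-seq read counts, in which all 36 were found. The tissue was mouse hypothalamus in 6 libraries, 3 from wild-type mice and 3 from mice labelled as knockouts of SRC-1 (steroid receptor coactivator 1, gene Ncoa1). The labels name the genotype and the tissue alone, with no treatment, age, strain, kind of deletion or link from a library to an animal. The p-values therefore set the difference between the genotypes against the spread of these libraries, and that spread may be technical.

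The hypothalamus is built from nuclei that arise from different parts of the embryonic forebrain floor, and each region is set up by a combination of transcription factors, many of them homeodomain proteins. Several of these factors stay on in the adult neurons of the nucleus they helped to form, so their transcripts in a dissected hypothalamus report on which nuclei the tissue held as well as on how active each gene was. In bulk tissue, fewer cells of a type and less RNA per cell cannot be told apart. SRC-1 is a coactivator that nuclear receptors recruit to their target genes. The factors were ordered by the nucleus they are best known from: 9 arcuate and tuberal, 5 ventromedial, 3 paraventricular, 13 anterior (with the preoptic area and the suprachiasmatic nucleus) and 6 mammillary and posterior. Many of them are made in more than a single nucleus.

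Totals ran from 36613507 to 46755553 counts per library. Ncoa1 itself had 5180, 4630 and 5406 counts in wild-type libraries 1 to 3 and 1692, 1478 and 1766 in knockout libraries 1 to 3, so every library matched its label. The transcript was thus reduced in the knockout, to 0.306 of its wild-type level, but still counted. SRC-1 protein was not measured in these libraries. Of 20257 genes with enough counts to be tested, 169 (0.834%) passed the quasi-likelihood test of edgeR at an adjusted p under 0.05, 49 higher and 120 lower in the knockout. Markers of arcuate, paraventricular, suprachiasmatic, lateral and ventromedial hypothalamic neurons were all detected. Oligodendrocyte markers summed to 3210 to 4025 CPM in wild type and 5164 to 6938 CPM in the knockout, with 4 of 6 genes higher in edgeR, and their part in the values below was not tested. Wild-type library 1 stood apart in the mammillary genes described below. For the transcription factors, a log2 fold change that moved by about 1.5 times or more without it is given both ways. For marker and antisense genes, such as Tac2 and Six3os1, only the value with all libraries is given. How far those values rest on wild-type library 1 is not shown.

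All 36 factors had enough counts to be tested, with 12 to 3030 counts per gene and library. Levels are given as CPM (counts scaled to a common library size, with TMM factors) within a gene, and as FPKM (CPM per kilobase of exon) to compare genes. Isl1, a LIM homeodomain factor of arcuate neurons, had the highest mean level over the 6 libraries at 10 FPKM, followed by Fezf1, a zinc finger factor of the ventromedial nucleus, at 9.41 FPKM, and Foxb1, a forkhead factor of the mammillary body, at 7.87 FPKM. Next came the orphan nuclear receptor Nr2f1 at 7.58, Nkx2-1, which specifies the ventral hypothalamus, at 7.53, the related receptor Nr2f2 at 7.15 and Six3 at 7.13 FPKM. These neighbours did not differ beyond their spread, since the 6 libraries ran from 6.53 to 12.2 FPKM for Isl1, from 5.90 to 16.8 for Fezf1 and from 5.47 to 9.19 for Nkx2-1. At the other end were Hmx2 at 0.715 FPKM, Barhl1 at 0.676, Lhx9, a LIM factor of the lateral hypothalamus, at 0.454, and Lhx8, a LIM factor of cholinergic forebrain neurons, at 0.436. The groups differ in this order. In wild type Fezf1 led with a mean of 11.8 FPKM, before Isl1 with 11.2 and Six3 with 8.98. Foxb1 had 6 FPKM in wild type, below several other factors, with 1.17 FPKM in wild-type library 1. In the knockout Foxb1 led with 9.74 FPKM, before Isl1 with 8.83. The difference between the genotypes in Foxb1 did not pass (edgeR adjusted p 0.807). The order is thus a loose one, with overlapping ranges between neighbours, but the top and bottom genes do not overlap.

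**Figure D1:**
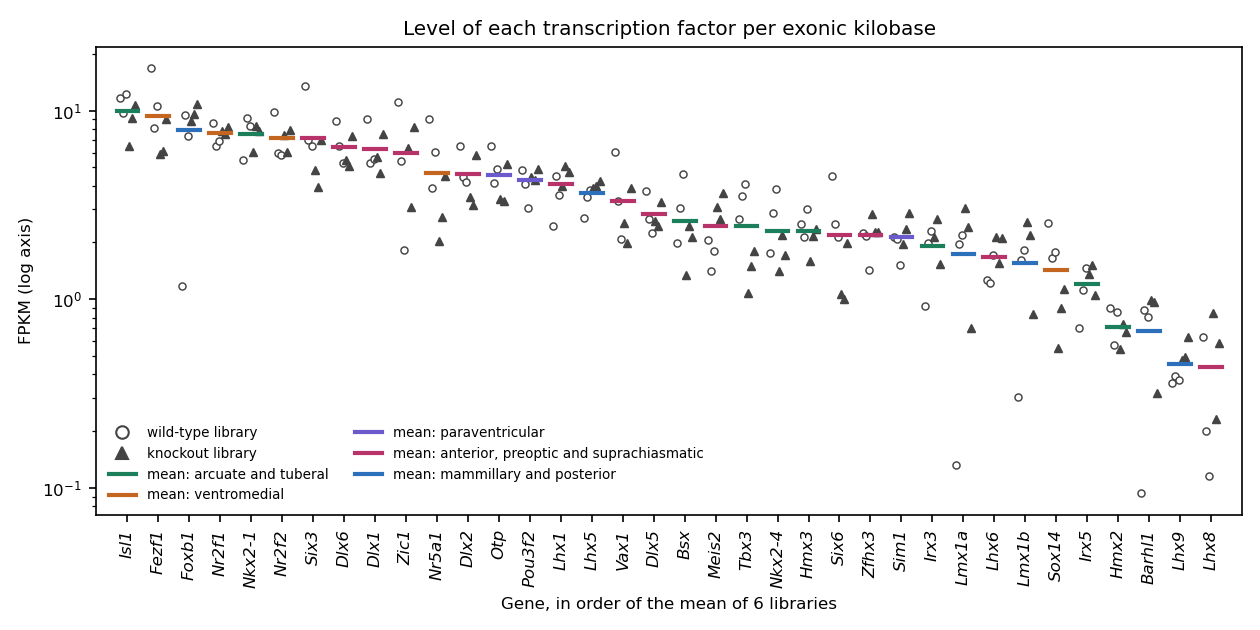
Level of each factor in FPKM on a log axis, in order of the mean of 6 libraries; open circles are wild-type libraries, filled triangles knockout libraries, and bars the mean, coloured by nucleus group. Isl1 leads at 10 FPKM and Lhx8 is last at 0.436 FPKM, and single wild-type points lie far below the rest for Foxb1, Lmx1a, Lmx1b and Barhl1.

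The variation between libraries of the same genotype was large for these genes. Pooled over both groups, the within-group SD of log2 CPM had a median of 0.37 over the 36 factors, against 0.14 over all genes tested, and each of the 36 lay above that all-gene median. Of the 36, 12 lay above the 90th percentile of all genes (beside 10% of all genes). Without wild-type library 1 the medians were 0.31 over the factors and 0.14 over all genes. The highest and lowest library differed by at least 2-fold in 20 of the 36. The steadiest were Nr2f1 and Lhx9, each with an SD of 0.16, and the least steady was Lmx1a with 1.76.

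**Figure D2:**
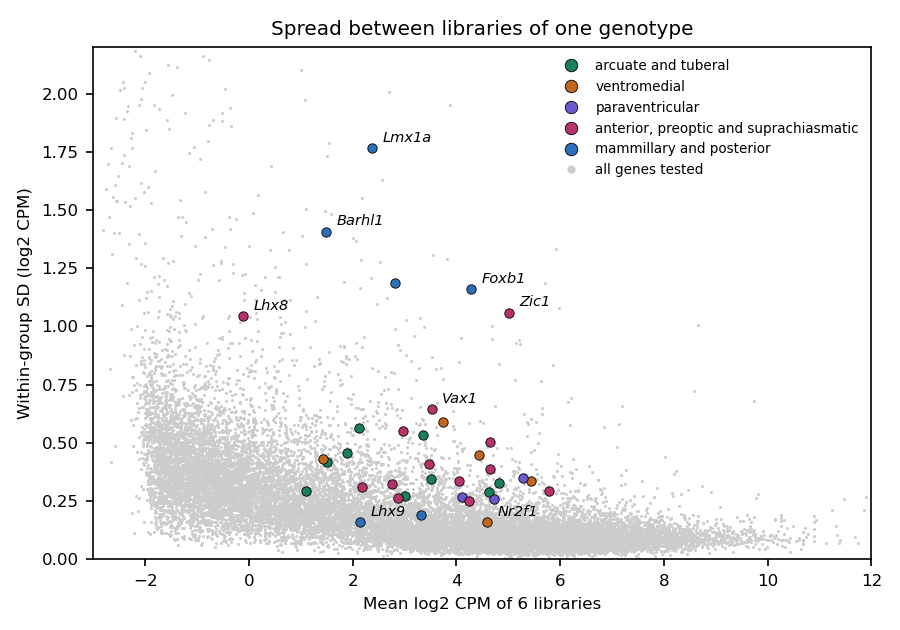
Within-group SD of log2 CPM (pooled over 3 wild-type and 3 knockout libraries) against mean log2 CPM; grey dots are all genes tested (29 lie outside the plotted range) and coloured points the 36 factors by nucleus group. Lmx1a (SD 1.76), Barhl1 (1.41), Foxb1 (1.16) and Zic1 (1.06) stand above most genes of their level.

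The 4 highest spreads were those of mammillary and posterior genes. Foxb1 (chromosome 9, 69664992 to 69668222, minus strand, GRCm39), which is needed to form the mammillary body and its tract, measured 3.51, 28.2 and 21.9 CPM in wild-type libraries 1 to 3 and 26.4, 28.6 and 32.2 CPM in knockout libraries 1 to 3. Lmx1a (chromosome 1, 167515799 to 167676310, plus strand), a LIM homeodomain factor of the posterior hypothalamus, subthalamic nucleus and midbrain dopamine neurons, measured 0.564, 8.35 and 9.31 CPM in wild-type against 13.0, 10.3 and 3.00 CPM in knockout libraries. Wild-type library 1 thus held 23 counts of Lmx1a and 143 of Foxb1, where no other library held fewer than 137 and 912.

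Lmx1b (chromosome 2, 33450977 to 33531219, minus strand), its paralog with a similar pattern, measured 1.67, 8.87 and 10.1 CPM in wild-type against 14.1, 12.1 and 4.58 CPM in knockout libraries. Barhl1 (chromosome 2, 28797692 to 28807996, minus strand), a homeodomain factor of the mammillary and subthalamic territory, measured 0.490, 4.62 and 4.24 CPM in wild-type against 5.19, 5.07 and 1.67 CPM in knockout libraries. In Lmx1a, Lmx1b and Barhl1 wild-type library 1 was lowest and knockout library 3 next lowest. Foxb1 differed in this, since knockout library 3 had the highest Foxb1 of the 6 libraries.

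Lhx5, a LIM factor of the mammillary area, measured 7.35, 9.59 and 10.4 CPM in wild-type against 10.6, 10.9 and 11.6 CPM in knockout libraries. Lhx9 measured 3.55, 3.86 and 3.68 CPM in wild-type against 4.69, 4.84 and 6.20 CPM in knockout libraries. In both genes every knockout library lay above every wild-type library, by a small margin in Lhx5. Wild-type library 1 was the lowest of the 6 libraries in 6 of 6 mammillary and posterior factors, by a small margin in Lhx9, as it was in 17.5% of all genes tested. It was also the lowest in the lateral hypothalamic markers Hcrt (66.6 CPM, against 142 to 177 in the others) and Pmch (147 CPM, against 249.8 to 408). The 6 mammillary and posterior factors together made up 2.45% of the summed CPM of the 36 factors in wild-type library 1, 11.2% and 11% in wild-type libraries 2 and 3, and 13.5%, 13.8% and 9.17% in knockout libraries 1 to 3.

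**Figure D3:**
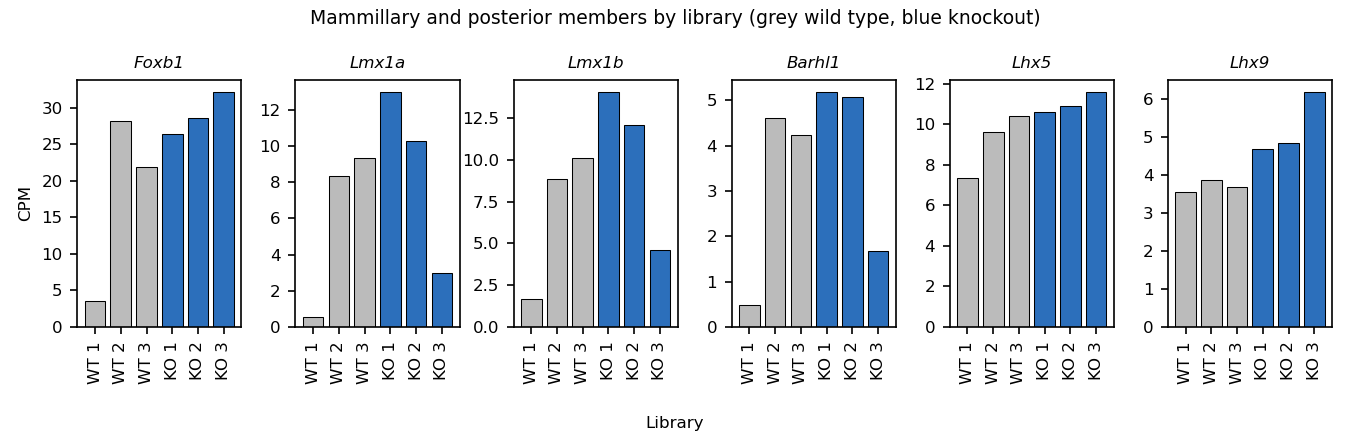
CPM of the 6 mammillary and posterior factors in each library, grey for wild type and blue for knockout, with a separate axis from 0 for each gene. Wild-type library 1 has the shortest bar in every panel (0.564 CPM for Lmx1a, 3.51 CPM for Foxb1), and knockout library 3 is low in Lmx1a, Lmx1b and Barhl1 but highest in Foxb1.

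The same split showed outside the 36 genes. Ebf3, a helix-loop-helix factor, measured 10.2, 45.3 and 46.9 CPM in wild-type against 55.3, 50.5 and 33.8 CPM in knockout libraries. It was picked from a list of other transcription factors after its values were seen. C130021I20Rik, a gene that runs antisense to Lmx1b and shares 15 exonic bases with it, measured 2.65, 17.7 and 17.9 CPM in wild-type against 23.4, 19.2 and 6.64 CPM in knockout libraries, in the same order as Lmx1b. The counting did not use strand, but reads in the shared bases were assigned to neither gene.

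Between the genotypes none of the 6 mammillary and posterior factors passed in edgeR. All 6 log2 fold changes (knockout minus wild type) were positive (beside 51.1% of all genes), with a median of 0.52. Lmx1a had 0.53 ± 1.10 (SE), Lmx1b 0.58 ± 0.81, Barhl1 0.35 ± 0.90 and Foxb1 0.70 ± 0.76, each with an adjusted p above 0.8 in edgeR. Without wild-type library 1 the values were -0.02 for Lmx1a, 0.11 for Lmx1b, -0.16 for Barhl1 and 0.21 for Foxb1, so most of the positive values rested on that library. Lhx9 had 0.51 ± 0.15 (edgeR adjusted p 0.172) and Lhx5 0.27 ± 0.13 (edgeR adjusted p 0.416). Without wild-type library 1 they were 0.48 for Lhx9 and 0.14 for Lhx5.

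The anterior, preoptic and suprachiasmatic factors varied in another order of libraries. Zic1 (chromosome 9, 91240111 to 91250136, minus strand), a zinc finger factor of the septum and preoptic area, measured 70.6, 34.4 and 11.6 CPM in wild-type against 40.1, 19.5 and 51.9 CPM in knockout libraries. Wild-type libraries 1 and 3 thus marked both ends of its range, 6.07-fold apart, with the knockout libraries between them. Vax1, a homeodomain factor needed for the suprachiasmatic nucleus, measured 22.6, 12.5 and 7.85 CPM in wild-type against 9.51, 7.43 and 14.7 CPM in knockout libraries. Lhx8 measured 1.57, 0.502 and 0.289 CPM in wild-type against 2.12, 0.580 and 1.47 CPM in knockout libraries. Wild-type library 1 was the highest library in 8 of these 13 factors, beside 16.2% of all genes, and knockout library 2 was the lowest in 6 of 13, beside 16.1% of all genes.

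Markers of suprachiasmatic neurons are given beside these values. The suprachiasmatic peptide gene Vip, named after its values were seen, measured 20.1, 9.67 and 1.80 CPM in wild-type against 9.01, 1.44 and 8.57 CPM in knockout libraries. Nms was also highest in wild-type library 1 (2.87 CPM) and lowest in knockout library 2 (0.403 CPM). Prokr2 was highest in wild-type library 2 (11.1 CPM). Grp did not follow Vip, at 3.11, 5.18 and 4.36 CPM in wild-type against 2.88, 3.48 and 3.44 CPM in knockout libraries. The summed level of 4 suprachiasmatic genes (Vip, Nms, Prokr2 and Grp) ran from 12.9 to 35.8 CPM in wild type and from 11.4 to 21.7 CPM in the knockout, with none at 0. Their part in the anterior values was not tested. Zic4, a gene whose exons overlap Zic1 on the opposite strand, followed Zic1 at 15.1, 7.76 and 2.09 CPM in wild-type against 7.29, 3.70 and 9.29 CPM in knockout libraries.

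**Figure D4:**
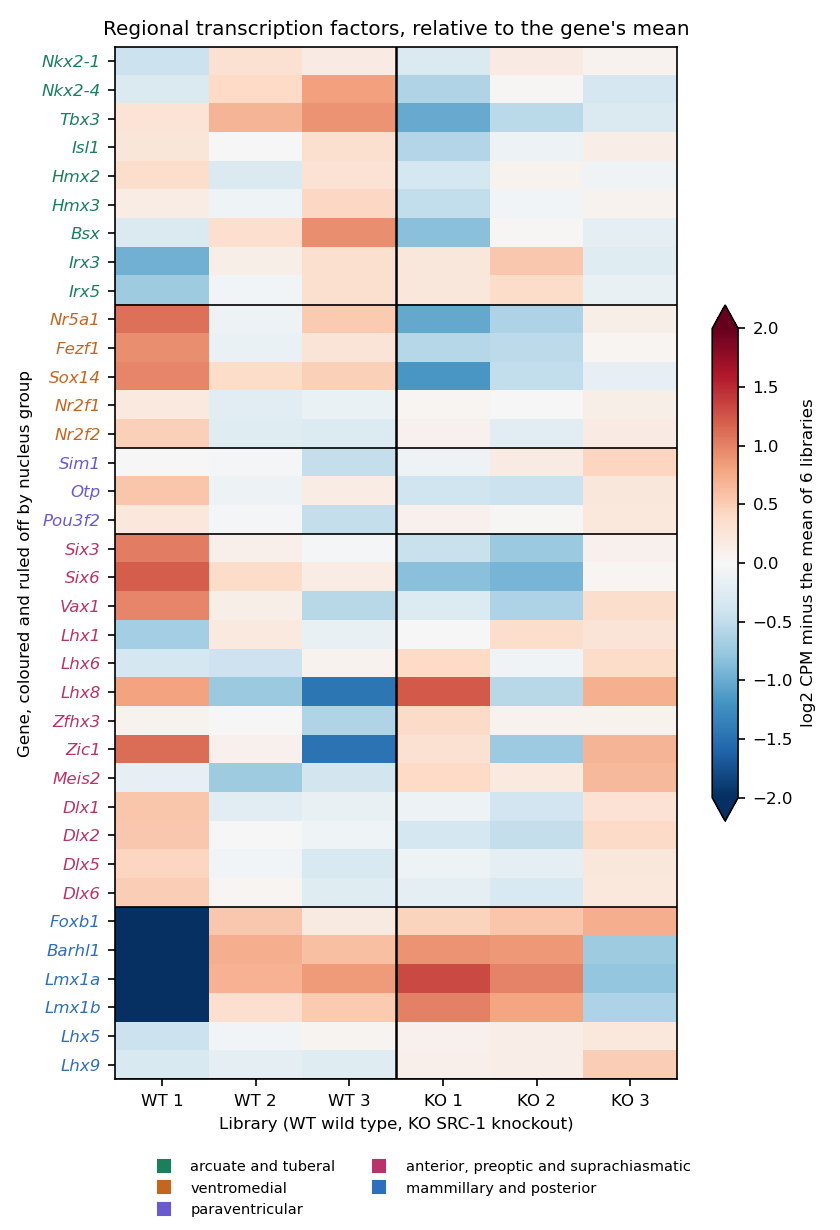
Log2 CPM of each factor minus its mean over the 6 libraries, with wild-type libraries to the left of the line and knockout libraries to the right, red for above and blue for below the mean; the scale stops at -2 and 2. The mammillary genes are blue in wild-type library 1, Zic1 and Lhx8 are blue in wild-type library 3, and Tbx3, Sox14, Meis2 and Lhx9 change sign at the line.

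The comparison of the genotypes asked which of these factors differ in level between wild-type and knockout libraries. None of the 36 passed the adjusted threshold in edgeR, beside 0.834% of all genes. At an unadjusted p under 0.05 there were 7 of 36, 3 higher (beside 5.75% of all genes) and 4 lower (beside 7.21%), and 13.0% of all genes did so in either direction. The groups did not overlap in 7 of 36, 4 higher (beside 8.58% of all genes) and 3 lower (beside 9.03%), and 17.6% of all genes in either direction. The median log2 fold change was -0.06 over the 36 factors and 0.00425 over all genes tested. By other tools, DESeq2 called 3 of the 36 (Tbx3, Sox14 and Meis2, beside 4.0% of all genes). By limma-voom none passed, and sample quality weights added to it gave the same 3 genes as DESeq2 (beside 1.98%). The count of factors without overlap was thus near the background.

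Tbx3, Sox14 and Meis2 were the factors nearest to the threshold. Tbx3 (chromosome 5, 119808600 to 119822789, plus strand), a T-box factor that maintains the identity of arcuate Pomc and Agrp neurons, measured 13.7, 18.3 and 21.2 CPM in wild-type against 5.6, 7.76 and 9.29 CPM in knockout libraries. Every knockout library lay below every wild-type library. The means were 17.7 ± 3.78 and 7.55 ± 1.85 CPM (SD, n = 3 each), giving a log2 fold change of -1.23 ± 0.22 (SE; edgeR adjusted p 0.0617). It passed in 5 of 15 alternative analyses. Among them was the fit without wild-type library 1 and knockout library 3, added after seeing the data. Of the fits with a single library left out, only edgeR without wild-type library 1 called it (-1.39, adjusted p 0.0398). The adjusted p ran from 1.55e-07 with DESeq2 to 0.17 over the alternatives.

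Sox14 (chromosome 9, 99756159 to 99758223, minus strand), an HMG-box factor of the SoxB group, measured 5.22, 3.41 and 3.68 CPM in wild-type against 1.14, 1.86 and 2.34 CPM in knockout libraries, with no overlap. Its log2 fold change was -1.20 ± 0.27 (edgeR adjusted p 0.0803), and the adjusted p ran from 3.01e-05 to 0.227 over the alternatives. The lowest came from edgeR with no filter on low counts, and no fit with a library left out called it.

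Meis2 (chromosome 2, 115691745 to 115897925, minus strand), a TALE homeodomain factor of forebrain GABA neurons, measured 16.8, 11.5 and 14.6 CPM in wild-type against 24.9, 21.7 and 29.6 CPM in knockout libraries, again with no overlap and in the other direction. Its log2 fold change was 0.83 ± 0.16 (edgeR adjusted p 0.0583), and the adjusted p ran from 1.58e-05 to 0.217 over the alternatives, 6 of 15 of which called it. G630016G05Rik, which shares 116 exonic bases with Meis2 on the opposite strand, had a log2 fold change of 0.93 ± 0.31 (edgeR adjusted p 0.217) from 9 to 24 counts per library.

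Six6, a homeodomain factor of the suprachiasmatic nucleus, the retina and the pituitary, was the other factor with lower values in every knockout library. It measured 18.1, 10.1 and 8.59 CPM in wild-type against 4.31, 4.03 and 8 CPM in knockout libraries. Its log2 fold change was -1.16 ± 0.41 (edgeR adjusted p 0.325), and it was -0.77 without wild-type library 1. Its paralog Six3 measured 50.9, 26.6 and 24.5 CPM in wild-type against 18.4, 14.9 and 26.5 CPM in knockout libraries, so that the groups overlapped, with a log2 fold change of -0.77 ± 0.40 (edgeR adjusted p 0.539) that was -0.36 without wild-type library 1. Six3os1, an antisense neighbour that shares 106 exonic bases with Six3, had -0.63 ± 0.31 (edgeR adjusted p 0.493). The summed level of 7 pituitary genes ran from 9.85 to 21.3 CPM in wild type and from 1.95 to 12.3 CPM in the knockout. Of the 5 tested, Pitx1, a homeodomain factor of the pituitary, passed in edgeR and was lower in the knockout (-3.70 ± 0.35, adjusted p 0.00392). Cga, the shared subunit of pituitary glycoprotein hormones, measured 4.51, 5.94 and 12.1 CPM in wild-type against 0.357, 0.0252 and 0.0657 CPM in knockout libraries (edgeR adjusted p 0.056). Pitx1, Cga and the LIM factor Lhx3 (-1.23 ± 0.29, edgeR adjusted p 0.0807) were lower in every knockout library, as Six6 was. The other genes of the 7 did not follow. Growth hormone (Gh) had 477, 0 and 0 counts in wild-type against 280, 7 and 1 counts in knockout libraries. Prolactin (Prl) had 63, 0 and 1 counts in wild-type against 129, 21 and 2 counts in knockout libraries. The groups overlapped for Tshb, with 70, 82 and 107 against 72, 79 and 60 counts. Pou1f1 had 0, 1 and 0 counts in wild-type against 1, 3 and 3 counts in knockout libraries. The part of these genes in the Six6 values was not tested.

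The sequences before the start sites of Sox14 and Six6 are shown because both genes were lower in every knockout library and their windows lie outside any exon of the table; that of Nr2f2 is shown as a window with the lowest CpG count among these genes. Each is the 250 bases before a RefSeq start site, from a RefSeq table of promoters (build GRCm38.p6) and found by exact match in GRCm39, on the gene's strand. Capitals mark CpG dinucleotides.
Sox14, chr9:99758224-99758473, minus strand: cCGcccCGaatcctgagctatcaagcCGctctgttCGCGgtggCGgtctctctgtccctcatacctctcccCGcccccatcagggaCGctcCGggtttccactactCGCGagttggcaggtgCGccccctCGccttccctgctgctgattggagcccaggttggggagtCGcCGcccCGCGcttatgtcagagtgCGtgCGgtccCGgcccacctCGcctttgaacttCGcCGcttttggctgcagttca
Six6, chr12:72986406-72986655, plus strand: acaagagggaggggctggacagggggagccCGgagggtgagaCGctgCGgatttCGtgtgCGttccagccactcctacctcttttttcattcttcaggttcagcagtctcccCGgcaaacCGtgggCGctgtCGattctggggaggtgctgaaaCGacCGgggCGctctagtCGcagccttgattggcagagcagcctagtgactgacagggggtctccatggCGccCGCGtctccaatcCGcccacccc
Nr2f2, chr7:70016495-70016744, minus strand: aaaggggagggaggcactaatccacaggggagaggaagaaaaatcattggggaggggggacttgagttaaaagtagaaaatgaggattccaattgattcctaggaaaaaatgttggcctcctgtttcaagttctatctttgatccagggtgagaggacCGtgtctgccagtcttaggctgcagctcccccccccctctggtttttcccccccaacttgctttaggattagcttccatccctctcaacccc

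Sox14 held 23 CpG dinucleotides in its window, Six6 held 17 and Nr2f2 held 1. These counts follow from which genes are shown: Nr2f1, whose log2 fold change was 0.10, held 22 in one window and 2 in another. Over the 34 windows of the 29 factors in the table the median was 14 CpG and 60.4% G and C, against 6 CpG and 52.4% over 32851 windows of all genes, and 24 of 34 windows (70.6%) held at least 10 CpG, against 37.8%. The nuclear receptor half-site AGGTCA, searched on both strands, was found in 2 windows, of Dlx1 and Barhl1, and in 14% of all windows. Annotated exons covered 220 of the 250 bases of that Dlx1 window and all 250 of that Barhl1 window. The homeodomain core TAATTA was found in none of the 34 and in 4.84% of all windows. These are descriptions of letters in a short window.

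Of the 5 ventromedial factors none passed in edgeR, and wild-type library 1 was the highest library in 5 of 5, beside 16.2% of all genes. Nr5a1 (steroidogenic factor 1), the nuclear receptor that defines the ventromedial nucleus, measured 28.6, 12.3 and 19.2 CPM in wild-type against 6.48, 8.64 and 14.4 CPM in knockout libraries. Fezf1 measured 41.1, 19.8 and 25.8 CPM in wild-type against 14.4, 15 and 22.2 CPM in knockout libraries. In both genes wild-type library 1 was highest and knockout library 1 lowest, and the groups overlapped through knockout library 3. The log2 fold changes were -1.02 ± 0.45 for Nr5a1 and -0.75 ± 0.34 for Fezf1, with edgeR adjusted p of 0.454 and 0.462. Without wild-type library 1 they were -0.68 for Nr5a1 and -0.41 for Fezf1. Nr0b1, an orphan receptor that acts with Nr5a1, had -1.08 ± 0.38 (edgeR adjusted p 0.248), and -0.70 without that library.

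The broadly made receptors Nr2f1 and Nr2f2 lay near 0, with log2 fold changes of 0.10 ± 0.10 and -0.01 ± 0.24 (edgeR adjusted p 0.796 and 0.993), and 0.23 and 0.28 without wild-type library 1. Nr2f1 measured 23.5 ± 3.60 CPM in wild-type against 25.1 ± 1.17 CPM in knockout libraries (SD, n = 3 each). Together the 3 ventromedial genes Adcyap1, Gpr149 and Gda, chosen as markers that are not transcription factors, ran from 278 to 387 CPM in wild type and from 230.4 to 288 CPM in the knockout.

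Of the 9 arcuate and tuberal factors, 7 had negative log2 fold changes (beside 48.9% of all genes), with a median of -0.31, and none passed in edgeR. Nkx2-4, a relative of Nkx2-1, measured 2.99, 4.86 and 6.52 CPM in wild-type against 2.41, 3.73 and 2.91 CPM in knockout libraries (-0.67 ± 0.28, edgeR adjusted p 0.368). Bsx, a homeodomain factor of Agrp and Npy neurons that acts in feeding, measured 8.41, 13.0 and 19.6 CPM in wild-type against 5.74, 10.4 and 9.09 CPM in knockout libraries (-0.70 ± 0.38, edgeR adjusted p 0.547). Wild-type library 3 was the highest library in 5 of the 9 factors and knockout library 1 the lowest in 6, beside 19.2% and 16.7% of all genes. Without wild-type library 3 the log2 fold change of Bsx was -0.35. That of Nkx2-4 ran from -0.92 to -0.38 with a library left out. Isl1 (-0.35 ± 0.18), which drives Pomc expression, and Nkx2-1 (-0.05 ± 0.22) did not pass, with edgeR adjusted p of 0.518 and 0.957. Nkx2-1 had -0.24 without wild-type library 1. Nkx2-1 measured 29.3 ± 7.44 CPM in wild-type against 28.3 ± 4.51 CPM in knockout libraries (SD, n = 3 each).

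Of 6 peptide genes of arcuate neurons, Pomc, Agrp, Npy and Kiss1 were lower in every knockout library than in any wild-type library. This held for 9.03% of all genes. The groups overlapped for Ghrh and Tac2. Tac2 had a log2 fold change of -0.02 ± 0.15. The summed level of Pomc, Agrp, Npy, Kiss1, Tac2 and Ghrh ran from 107 to 178 CPM in wild type and from 39.4 to 80.6 CPM in the knockout, with none at 0 and none of the 6 past the edgeR threshold. Their part in the Tbx3 and Bsx values was not tested.

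Of 5 pairs of these factors that lie near each other on a chromosome, 4 are pairs of paralogs and had fold changes close to each other. The other pair, Tbx3 and Lhx5, 747 kb apart on chromosome 5, had -1.23 and 0.27. Hmx2 and Hmx3, which specify Ghrh neurons and lie 2.73 kb apart on chromosome 7, had log2 fold changes of -0.25 ± 0.22 and -0.31 ± 0.17, and -0.14 and -0.33 without wild-type library 1. Irx3 and Irx5, which lie 556 kb apart on chromosome 8, had 0.29 ± 0.35 and 0.25 ± 0.26, and both were lowest in wild-type library 1. Without it Irx3 had -0.02 and Irx5 0.01. Irx3 measured 2.18, 4.67 and 5.41 CPM in wild-type against 5.08, 6.27 and 3.64 CPM in knockout libraries. Dlx1 and Dlx2, factors of GABA neurons that lie 9.43 kb apart on chromosome 2, had -0.15 ± 0.28 and -0.28 ± 0.28. Dlx5 and Dlx6, 9.83 kb apart on chromosome 6, had -0.06 ± 0.20 and -0.20 ± 0.20. None of these 8 genes passed in edgeR, with adjusted p from 0.499 for Hmx3 to 0.942 for Dlx5. Dlx1 values are uncertain, since its antisense gene Dlx1as covers 25.8% of its exonic bases and reads there were not counted. In all 4 Dlx genes wild-type library 1 was the highest, with 36.7 CPM for Dlx1 against 19.1 to 30.6 CPM in the other libraries. Without it the log2 fold changes were 0.14 for Dlx1, -0.06 for Dlx2, 0.17 for Dlx5 and 0.01 for Dlx6.

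The paraventricular factors did not move in a common direction. Sim1, a basic helix-loop-helix factor without which the paraventricular nucleus does not form, measured 17.4, 17.0 and 12.4 CPM in wild-type against 16.1, 19.3 and 23.3 CPM in knockout libraries. Otp, a homeodomain factor needed for the same neurons, measured 57.0, 36.2 and 43.2 CPM in wild-type against 29.8, 29.1 and 45.7 CPM in knockout libraries. Pou3f2, a POU factor that acts downstream of Sim1, measured 30.5, 25.7 and 19.0 CPM in wild-type against 28.0, 26.8 and 30.7 CPM in knockout libraries. The groups overlapped in all 3, with log2 fold changes of 0.33 ± 0.17, -0.38 ± 0.25 and 0.19 ± 0.16 and edgeR adjusted p of 0.478, 0.634 and 0.738. Leaving out wild-type library 1 gave 0.41, -0.19 and 0.35. Together Avp, Oxt, Crh and Trh ran from 136 to 528 CPM in wild type and from 147 to 364 CPM in the knockout.

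With all libraries the remaining anterior factors did not share a direction, and none passed in edgeR. Lhx6, a LIM factor of GABA neurons in the preoptic area and zona incerta, measured 5.69, 5.44 and 7.68 CPM in wild-type against 9.58, 6.96 and 9.44 CPM in knockout libraries (0.47 ± 0.17, edgeR adjusted p 0.268). Lhx1, which couples the neurons of the suprachiasmatic clock, measured 10.2, 18.8 and 14.8 CPM in wild-type against 16.5, 21.1 and 19.7 CPM in knockout libraries (0.38 ± 0.22, edgeR adjusted p 0.557), and its log2 fold change was 0.18 without wild-type library 1. Zfhx3, a zinc finger homeodomain factor of the same nucleus, measured 57.8, 55.5 and 36.4 CPM in wild-type against 72.2, 58.1 and 58.0 CPM in knockout libraries (0.33 ± 0.19, edgeR adjusted p 0.572). The Zfhx3 groups did not overlap, but wild-type library 1 and knockout library 3 nearly met. Zic1 had -0.06 ± 0.79, Vax1 -0.43 ± 0.49 and Lhx8 0.82 ± 0.72, with edgeR adjusted p of 0.987, 0.816 and 0.745. Leaving out wild-type library 1 gave 0.70, 0.06 and 1.82. The negative values of Zic1 and Vax1 thus turned positive without that library. With a library left out, Lhx6 ran from 0.37 to 0.64 and Zfhx3 from 0.15 to 0.45. The lack of a shared direction among these factors therefore rested on wild-type library 1. At these standard errors changes of the size seen in Meis2 could not be told from none in Zic1 or Lhx8.

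**Figure D5:**
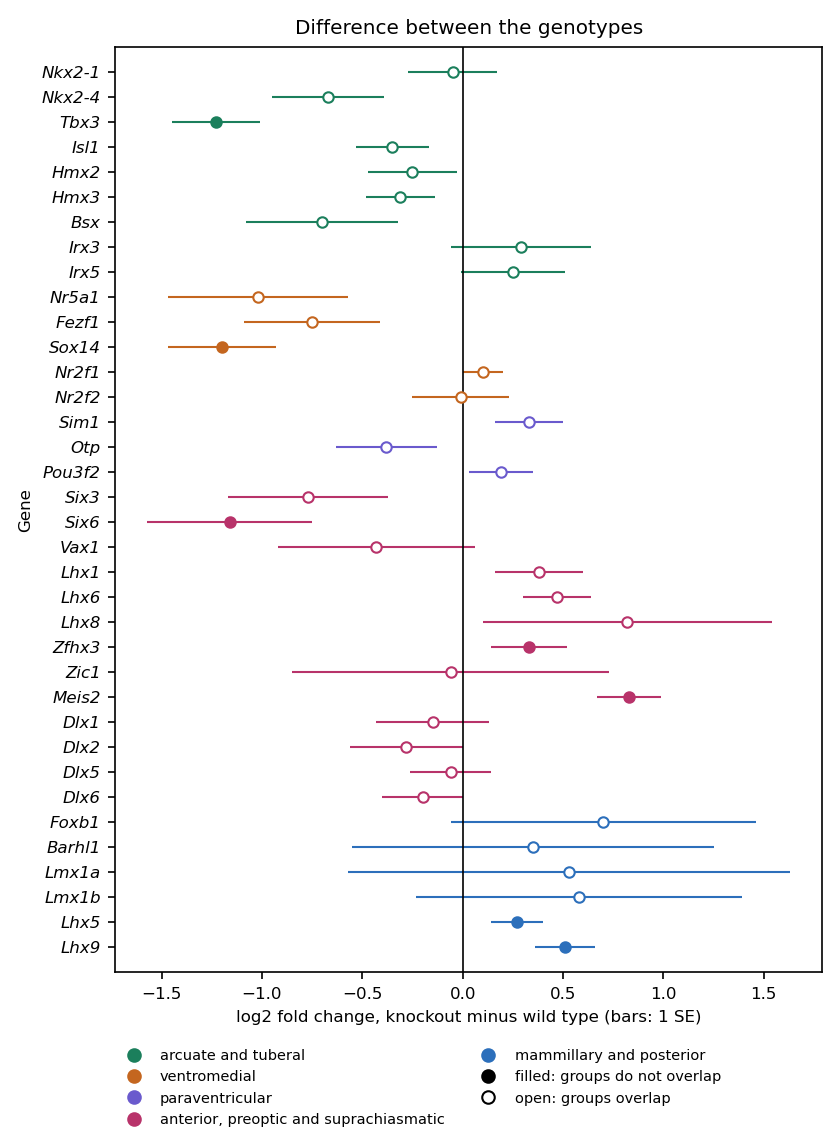
Log2 fold change of each factor, knockout minus wild type, with bars of 1 SE, coloured by nucleus group; filled points are genes whose 3 knockout libraries all lie above or all below the 3 wild-type libraries. Tbx3 (-1.23), Sox14 (-1.20) and Meis2 (0.83) lie farthest from 0 relative to their SE, and Lmx1a has the widest bar (SE 1.10).

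Among 36 other transcription factors and antisense genes of the hypothalamus and its borders, 34 were tested and 2 passed in edgeR, both lower in the knockout (beside 0.592% of all genes). Rax, a homeodomain factor of tanycytes, the glia of the ventricle floor, fell from 1.67, 3.17 and 4.04 CPM in wild type to 0.548, 0.580 and 0.657 CPM in the knockout (-2.31 ± 0.32, edgeR adjusted p 0.0172). Lhx2, a LIM factor that tanycytes also make, fell from 5.34, 5.99 and 6.23 CPM to 3.03, 2.67 and 3.70 CPM (-0.90 ± 0.16, edgeR adjusted p 0.0381). The summed level of 8 tanycyte and ependymal genes, Rax among them, ran from 193 to 201 CPM in wild type and from 78.2 to 96.8 CPM in the knockout, with none at 0, and their part in the Rax and Lhx2 values was not tested. Rax did not pass without knockout library 1 (edgeR adjusted p 0.107) or with limma-voom (0.0569). Lhx2 passed without knockout library 3 (0.0298) and did not pass in edgeR without any other single library, with adjusted p of 0.0708, 0.0712 and 0.0673 without wild-type libraries 1 to 3 and 0.16 and 0.0616 without knockout libraries 1 and 2. The next lowest p were those of Pou3f3, a POU factor (0.37 ± 0.13, edgeR adjusted p 0.245; 0.23 without wild-type library 1), and Nr0b1, given above. Over the 34 genes the median log2 fold change was 0.07, with 22 positive and 12 negative values (beside 51.1% positive and 48.9% negative over all genes).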

How the data were processed

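Total RNA of mouse hypothalamus was sequenced in 3 wild-type and 3 knockout libraries, extracted with RNeasy columns and prepared with TruSeq chemistry, per the labels' protocols. The authors deposited raw counts per gene, without normalization. The aligner was STAR (2.7.10a, per the submitters' processing notes), and reads were counted over exons with featureCounts on the RefSeq genes of mm39 (GRCm39), per the file headers, which give version 2.0.0 where the notes give 2.0.3. No strand or multi-overlap option was set, so reads in exons shared by 2 genes were not counted.

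Genes were tested with edgeR 4.0.16 (R 4.3.3; filterByExpr with a minimum count of 10, TMM, robust quasi-likelihood F-test, Benjamini-Hochberg over 20257 genes, two-sided). SE was derived from the log2 fold change and the F statistic (change over root F). A single gene in 3 against 3 cannot go below an exact permutation p of 0.1, so none was run. No 2 libraries agreed within sampling noise (chi-square per degree of freedom from 8.87), and the common biological coefficient of variation was 12.3%. The fit was checked on simulated counts, drawn independently for each gene and library at the fit's own dispersions. That check cannot show how the test behaves where many genes shift together in a library. FPKM used the deposited exon lengths.

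Alternatives were RLE size factors, library totals, no filter, at least 1 CPM in at least 3 libraries, DESeq2 1.42.0, limma-voom (limma 3.58.1) with and without sample quality weights, a replicate block and each library left out. Leaving out wild-type library 1 and knockout library 3 together was added after seeing the data. The 36 genes and all lists were chosen with earlier results of these data known. All 36 are described. Of the other transcription factors, those past the threshold or the 4 with the lowest p are named. Only some of the genes whose exons overlap the 36 are described above. Not described are Tbx3os1, A830082K12Rik, Dlx6os2 and Gm39790. On the opposite strand these share 5% of the exonic bases of Tbx3, 3.21% of Nr2f1, 9.71% of Dlx6 and 0.817% of Lmx1b. Ebf3 and Vip were named after their values were seen. Some results are not reported here.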

Additional observations from a re-analysis of the deposited data

How the results depend on the processing

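The labels share replicate numbers but do not say whether these pair the libraries. Deviations of same-numbered libraries from their group means had correlations over genes of -0.206, 0.351 and 0.224 for numbers 1 to 3. Those of differently numbered libraries ran from -0.413 to 0.255. With 3 libraries per group these values can neither show nor exclude a pairing. With a replicate block 155 genes passed, and 2 of the 36 factors (Tbx3 and Meis2). Against 169 genes, 66 passed with library totals alone, 966 with no filter, 84 with at least 1 CPM in at least 3 libraries (the stricter filter), 810 by DESeq2, 103 by limma-voom and 401 with sample quality weights; 36 to 260 passed with a library left out, and 92 without wild-type 1 and knockout 3. Against 0 of the 36 factors, 2 passed with no filter, 3 with DESeq2, 3 with sample quality weights, 0 to 1 with a library left out, and 3 (Tbx3, Six6 and Meis2) without wild-type 1 and knockout 3. Against 2 of the other factors, 1 passed with library totals, the stricter filter or limma-voom, 4 with no filter, 0 to 2 with a library left out and 1 without both. The median over the 36 ran from -0.16 to 0.06 with a library left out and was 0.07 without both. Log2 fold changes turned sign in 10 factors and kept it in 26 over 15 alternatives. Zic1 was 0.19 with limma-voom, 0.09 with the block and 0.37 without both, and Nr2f2 0.03, 0.02 and 0.20; Dlx5 was 0.03 and Nkx2-1 was -0.29 without both. With a library left out the ranges were -0.49 to 0.70 for Zic1, -0.14 to 0.28 for Nr2f2, -0.21 to 0.17 for Dlx5, -0.35 to 0.14 for Dlx1, -0.38 to 0.01 for Dlx6, -0.24 to 0.10 for Nkx2-1, -0.75 to 0.06 for Vax1, -0.02 to 0.55 for Irx3, -0.02 to 0.98 for Lmx1a and -0.16 to 0.74 for Barhl1. The cause was not tested. Counts of 12 to 89 in Lhx8 and 20 to 218 in Barhl1 limit those values.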
